A study of Homo sapiens with 27 samples.

Results

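PC-3 and SK-OV-3 cells grown without hypoxia were compared gene by gene. PC-3 is a line of prostate adenocarcinoma from a bone metastasis that grows without androgen, and SK-OV-3 is a line of ovarian adenocarcinoma from ascites fluid. The comparison used 6 of the 27 arrays of the series, chosen by their labels: 3 biological replicas of control PC-3 cells and 3 of control SK-OV-3 cells, all kept for 72 h at 21% oxygen. The other arrays held WM793B melanoma cells and cells under hypoxia. Of these, only the 3 control WM793B arrays are set beside some genes below, as another line, and no hypoxic array was used. PC-3 cells were grown in RPMI medium and SK-OV-3 cells in McCoy's medium, both with fetal bovine serum, so line and medium cannot be told apart. Each cancer type is represented by 1 established line, which limits every value below to that line.

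Cancer cell lines keep part of the program of the epithelium they come from. Homeobox and other lineage transcription factors often, but not always, stay set as they were in the organ. Adhesion, matrix, growth factor and antigen presentation genes can differ with the history of each tumor. Lines also carry fixed gains and losses of DNA, such as amplification of ERBB2, the gene of a receptor tyrosine kinase, in SK-OV-3 cells, and loss of CTNNA1, the gene of alpha-catenin, in PC-3 cells. DNA was not measured in these arrays, which read RNA only.

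Levels are log2 values per probe set after the background correction and normalization of GC-RMA, which has a lowest value of 2.28 here. Between 32.2% and 33.5% of the probe sets of an array stood at that value, and a level at or below 5 (log2) was taken as noise. The study also put its background noise at 5 but did not state the scale. A gene called at noise here may therefore still be expressed at a low level. The median of an array was between 2.61 and 2.63, and the highest values reached 15.46. The number of arrays limits the precision of each value. The replicas resembled each other closely, with correlations across probe sets of 0.996 to 0.998 within a line, against 0.915 to 0.917 between the lines. No array stood apart from its group.

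Of 10011 genes tested, 4403 (44%) were called different, which means an adjusted p under 0.05 in limma's moderated test and a difference of at least 2-fold. In PC-3 cells 2310 genes (23.1%) were higher and 2093 (20.9%) were lower than in SK-OV-3 cells. These percentages are the background against which every gene group below is read. Counted by probe sets, 8614 of 19551 (44.1%) were called, 4452 (22.8%) being higher and 4162 (21.3%) lower in PC-3 cells. At an adjusted p under 0.05 with no limit on size, 8334 genes (83.2%) and 16051 probe sets (82.1%) passed, and in 8598 genes (85.9%) the 3 arrays of one line did not overlap the 3 of the other. The median size over all genes tested was 0.85 log2 units, and the median signed difference, PC-3 minus SK-OV-3, was 0.02, a value that the normalization between arrays brings near 0. At 8-fold or more, 542 genes (5.41%) were higher and 441 (4.41%) were lower in PC-3 cells. The median SD between replicas was 0.08 in PC-3 cells and 0.12 in SK-OV-3 cells, and the median standard error of a difference was 0.10. In bulk cultures, a smaller share of cells that express a gene and less RNA per cell cannot be told apart.

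**Figure D1:**
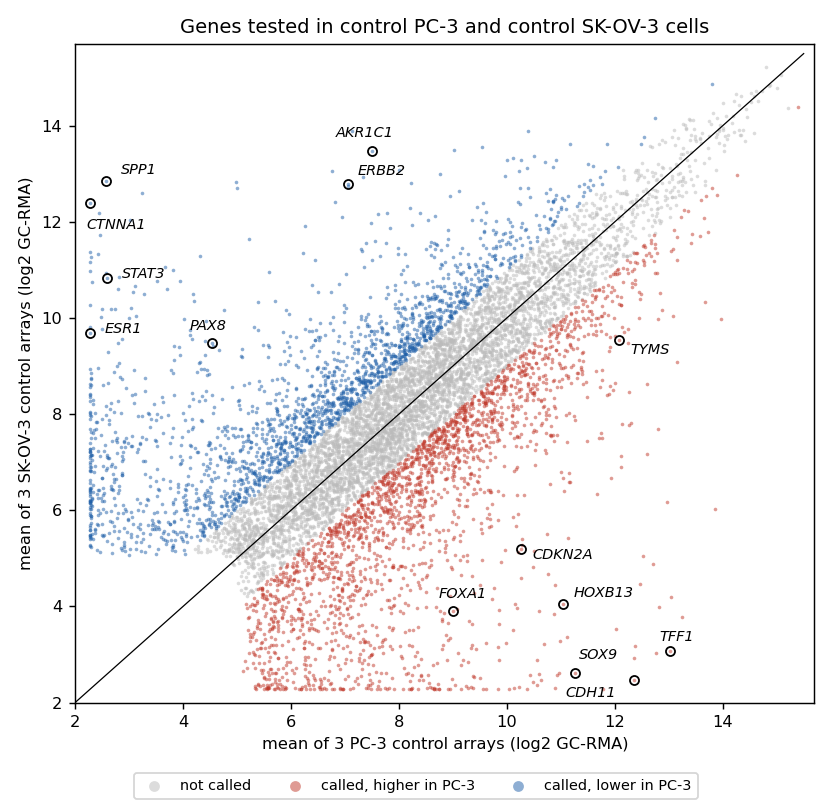
Each point is a gene tested, with the mean log2 level of 3 control PC-3 arrays on the horizontal axis and of 3 control SK-OV-3 arrays on the vertical axis, and the diagonal marks equal levels. The 2310 genes called higher in PC-3 cells are red and lie below it, the 2093 called lower are blue and lie above it, and genes not called are grey.

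Lineage markers differed between the lines. Of 18 markers of luminal prostate epithelium, 16 had a probe set and 7 were above noise often enough to be tested. All 7 were higher in PC-3 cells, with a median difference of 3.79 (log2). They were above noise in every PC-3 array, but only 1 was so in every SK-OV-3 array. HOXB13, TMPRSS2, FOXA1 and GATA2 were at noise in all SK-OV-3 arrays. These passed the filter through PC-3 cells only, which fixed their direction, so the count is a description and no test. The summed level of the 16 was 11.87 to 12.14 in PC-3 arrays, against 7.88 to 8.05 in SK-OV-3 arrays. HOXB13, the homeobox gene of the prostate, was at 10.80, 11.28 and 11.03 in PC-3 arrays, against 3.92, 3.92 and 4.30 in SK-OV-3 arrays (log2 difference 6.99 ± 0.16, SE, adjusted p = 2.04e-08). All PC-3 arrays were high and all SK-OV-3 arrays at noise. TMPRSS2, a membrane serine protease of prostate epithelium, was at 7.54, 7.44 and 7.49 in PC-3 arrays and at the lowest value, 2.28, in all SK-OV-3 arrays. FOXA1, a pioneer factor of prostate and other glandular epithelia, was at 8.94, 9.10 and 8.95 in PC-3 arrays, against 3.91 in each SK-OV-3 array. Neither gene's arrays overlapped between the lines. STEAP1, a cell surface metalloreductase, differed 13.8-fold but was above noise in both lines. In control WM793B melanoma cells, STEAP1, GATA2, SLC45A3 and STEAP2 also had means above noise, at 8.76, 6.92, 6.59 and 6.32. These members therefore did not set PC-3 cells apart from another line. HOXB13, FOXA1 and TMPRSS2 were at noise there, with means of 4.16, 3.43 and 2.29. KLK2, FOLH1 and ACP3, whose secreted or surface products mark differentiated luminal cells, were at or below noise in all 6 arrays, and so was KLK3, the gene of prostate-specific antigen, except for 5.04 in 1 SK-OV-3 array. The PC-3 arrays thus carried HOXB13 and FOXA1, transcription factors of the tissue on their label, and not these products.

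Markers of ovarian and Müllerian carcinoma went the other way, though not as a whole. Of 17 markers, all with a probe set, 8 were tested, of which 5 were lower and 1 higher in PC-3 cells (median difference -2.89). The 5 were at noise in PC-3 cells and the 1 in SK-OV-3 cells. Each passed the filter through the other line only, which fixed its direction. PAX8, the paired-box factor of Müllerian epithelium, was at 4.49, 4.53 and 4.58 in PC-3 arrays, against 9.56, 9.51 and 9.39 in SK-OV-3 arrays, and all 7 of its tested probe sets were lower in PC-3 cells. SOX17, another factor of that epithelium, was at 2.28 in all PC-3 arrays, against 7.50, 8.08 and 8.11 in SK-OV-3 arrays. ESR1, the estrogen receptor alpha, was at 2.28 in all PC-3 arrays and at 9.56, 9.61 and 9.87 in SK-OV-3 arrays (difference -7.40 ± 0.10, adjusted p = 2.53e-09). These 3 genes were at noise in PC-3 cells and had no overlap. MSLN, the surface protein mesothelin, had a difference of -2.72 (log2) and was only just above noise in SK-OV-3 cells. The probe set of FOLR1, the folate receptor of ovarian carcinoma, was bright in both lines and was not called (difference -0.16, adjusted p = 0.69). It was also bright in WM793B cells, with a mean of 10.3, and whether it reads FOLR1 alone was not tested. MUC16, the gene of the CA125 antigen, was at 2.28 in every array, and WT1, a zinc finger factor of serous tumors, was the member that was higher in PC-3 cells, at 5.54, 6.17 and 5.80, against 3.59, 4.29 and 4.13 in SK-OV-3 cells. The SK-OV-3 arrays therefore matched their label by PAX8 and SOX17 but not by MUC16 or WT1.

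**Figure D2:**
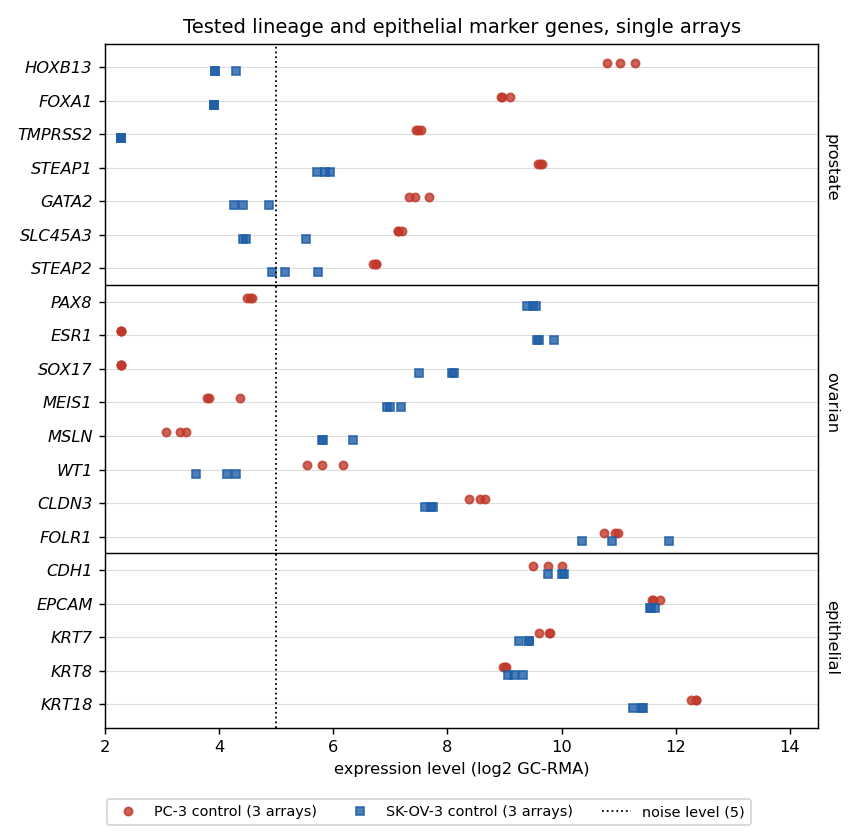
Log2 levels (horizontal axis) of tested prostate luminal, ovarian and Müllerian, and epithelial marker genes, one row per gene and one point per control array, with PC-3 arrays as red circles above SK-OV-3 arrays as blue squares and the noise level of 5 as a dotted line. HOXB13 and FOXA1 are high in PC-3 arrays alone, and PAX8, SOX17 and ESR1 in SK-OV-3 arrays alone.

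Markers of other cell types were largely at noise. None of the 9 leukocyte and erythroid markers with a probe set passed the filter, and their summed level was 5.47 to 5.48 in PC-3 arrays and 5.48 to 5.49 in SK-OV-3 arrays. None of 10 markers of ovarian stroma and granulosa cells passed either. Of 11 melanocyte markers, only MITF and RAB27A were tested, and MITF was lower in PC-3 cells. Of 3 endothelial markers tested, PECAM1 and KDR were higher and EGFL7 was lower in PC-3 cells, all at levels of 6.76 or less. Of 3 fibroblast markers tested, COL3A1 and PDGFRA were higher in PC-3 cells. Basal markers of the prostate gave a mixed picture, since in PC-3 cells 1 of 8 tested was higher and 4 were lower, and their summed level was 12.33 to 12.41 in PC-3 arrays, against 12.23 to 12.31 in SK-OV-3 arrays. Of 3 neuroendocrine markers tested, the neuronal enolase ENO2 was higher and the ubiquitin hydrolase UCHL1 were lower in PC-3 cells.

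The HOXB cluster on chromosome 17 was split at its end. HOX genes encode homeodomain factors that mark position along the body axis, and their order on the chromosome follows the order of the regions where they act. Of the 10 HOXB genes, 9 were tested, and 8 of them were lower in PC-3 cells while HOXB13, which lies apart at one end of the cluster, was higher. Above noise in every array were 4 HOXB genes in PC-3 cells and 8 in SK-OV-3 cells. HOXB13 and the members at noise in PC-3 cells passed the filter through 1 line only, which fixed their direction. The count is therefore a description and no test. HOXB7 was at 2.75, 3.47 and 3.03 in PC-3 arrays, against 10.57, 10.51 and 10.52 in SK-OV-3 arrays. HOXB2 was at 2.84, 2.91 and 2.84 in PC-3 arrays, against 9.55, 9.57 and 9.54 in SK-OV-3 arrays. Both genes were at noise in PC-3 cells. HOXB6 and HOXB3 were instead low but above noise in PC-3 cells, 30.6-fold and 16.5-fold below SK-OV-3 cells. PRAC1, a small nuclear protein gene known from prostate and distal colon that neighbors HOXB13, was at 10.84, 11.02 and 10.79 in PC-3 arrays and at 2.31 in all SK-OV-3 arrays. Of 9 HOXC genes with a probe set, 2 were tested, HOXC6 and HOXC13, both higher in PC-3 cells. Of 8 HOXD genes, 3 were tested, HOXD1, HOXD8 and HOXD13, all lower. The other 7 HOXC and 5 HOXD genes were at or below noise in all 6 arrays. No HOXC gene was above noise in all SK-OV-3 arrays, and no HOXD gene in all PC-3 arrays. The filter thus favored these directions, which are a description and no test. HOXA genes are not analysed as a list here. HOXC6 was at 8.75, 8.34 and 8.73 in PC-3 arrays, against 2.28 to 2.33 in SK-OV-3 arrays. WM793B cells shared parts of both patterns, with means of 8.7 for HOXB7 and 6.7 for HOXC6.

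Beyond the HOX genes, 35 of 71 lineage transcription factors were tested, of which 13 were higher and 15 were lower in PC-3 cells. SOX9, a factor of developing glands and cartilage, was at 11.30, 11.29 and 11.20 in PC-3 arrays, against 2.28, 2.78 and 2.75 in SK-OV-3 arrays (difference 8.66 ± 0.14, adjusted p = 5.25e-09). NR2F1, an orphan nuclear receptor, was at 10.55, 10.63 and 10.48 in PC-3 arrays, against 3.43, 2.38 and 2.83 in SK-OV-3 arrays. TFAP2C, an AP-2 factor, was at 9.68, 9.64 and 9.54 in PC-3 arrays, against 3.14, 3.14 and 3.43 in SK-OV-3 arrays. All of these were at noise in SK-OV-3 cells, and the forkhead gene FOXA2 and the grainyhead genes GRHL1 and GRHL2, which maintain epithelial character, followed them at lower levels. On the other side, FOXF2, a forkhead factor of mesenchyme, was at 2.28 in all PC-3 arrays, against 7.69, 7.65 and 7.73 in SK-OV-3 arrays. ONECUT2, a homeobox factor, was at 3.16, 2.80 and 2.76 in PC-3 arrays, against 7.67, 7.40 and 7.18 in SK-OV-3 arrays. The epithelial factors ELF3 and KLF5 were not called, with differences of 0.02 and -0.21. Among nuclear receptors, 4 of 16 tested were higher and 6 were lower in PC-3 cells. PPARG, a regulator of lipid storage, was at 11.66, 11.69 and 11.80 in PC-3 arrays, against 8.51, 8.58 and 8.60 in SK-OV-3 arrays, 8.90-fold higher.

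The widest differences were between genes at a high level in one line and at noise in the other. With all 3 arrays of a line at 8 or above and all 3 of the other at 5 or below, 140 genes were found in PC-3 cells alone and 109 in SK-OV-3 cells alone, which is a count with no test. Of the 140, 40 were also at 8 or above in all control WM793B arrays and 72 at noise there, and of the 109, 30 and 43. Because a level at noise is only an upper limit, folds against it are given as at least the bright line's mean over the noise level of 5.

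Among the 15 genes with the largest positive differences, several encode secreted or mucosal proteins. TFF1, a trefoil peptide of mucous secretions, was at 12.83, 13.26 and 12.99 in PC-3 arrays, against 3.50, 3.26 and 2.43 in SK-OV-3 arrays (difference 9.96 ± 0.27, adjusted p = 5.13e-08, at least 260-fold higher). AGR2, a protein disulfide isomerase that mucin secretion needs, was at 12.89, 12.73 and 12.68 in PC-3 arrays, against 2.97, 3.20 and 2.95 in SK-OV-3 arrays, at least 217-fold higher. FST, the activin-binding protein follistatin, was at 12.81, 12.83 and 12.79 in PC-3 arrays, against 3.97, 3.66 and 4.36 in SK-OV-3 arrays, at least 224-fold higher. In each, the PC-3 arrays lay close together near the top of the scale. CDH11, a cadherin of osteoblasts and other mesenchymal cells, was at least 163-fold higher, with PC-3 arrays at 12.45, 12.21 and 12.39 and SK-OV-3 arrays at 2.59, 2.39 and 2.40. HPGD, the enzyme that inactivates prostaglandins, was at least 166-fold higher, and RGS2, an inhibitor of G protein signaling, at least 262-fold. SRGN, the granule proteoglycan serglycin, was at 13.27, 13.25 and 13.24 in PC-3 arrays, against 3.67, 3.87 and 3.81 in SK-OV-3 arrays, and the neurofilament gene NEFL was at least 164-fold higher. SRGN and RGS2 were also high in WM793B cells, with means of 10.46 and 9.54. TFF1, CDH11, AGR2, NEFL and HPGD were at noise there. The rest of the 15 were PHACTR3, SOX9, PRAC1, COL13A1, ADGRF1, SERPINB7 and PRSS3, the last of which is read by a probe set that other trypsinogen genes may share.

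The largest negative differences were led by SPP1, the matrix phosphoprotein osteopontin. It was at 2.65, 2.44 and 2.65 in PC-3 arrays, against 12.85, 12.85 and 12.86 in SK-OV-3 arrays (difference -10.27 ± 0.08, adjusted p = 1.03e-09, at least 231-fold lower). DHRS2, a mitochondrial short-chain dehydrogenase, was at 2.45 in all PC-3 arrays, against 12.13, 12.17 and 12.26 in SK-OV-3 arrays. GDA, the guanine deaminase, was at 3.23 in all PC-3 arrays, against 12.60, 12.64 and 12.56 in SK-OV-3 arrays. In all 3 genes the PC-3 arrays were at noise. IGFBP7, a secreted IGF-binding protein, was at least 131-fold lower, and PTGIS, the prostacyclin synthase, at least 81.1-fold. The developmental factors ZIC2 and ID4 were both at noise in PC-3 cells. ZIC2 was at 2.33, 2.30 and 2.78 in PC-3 arrays, against 11.80, 11.71 and 11.68 in SK-OV-3 arrays, and ID4, an inhibitor of basic helix-loop-helix factors, at 2.28, 2.34 and 2.28 in PC-3 arrays, against 11.19, 11.47 and 11.16 in SK-OV-3 arrays. TCIM, DCDC2, MFAP3L, RHEX and the long noncoding RNA gene CRNDE completed this side together with CTNNA1 and STAT3, which are described below.

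**Figure D3:**
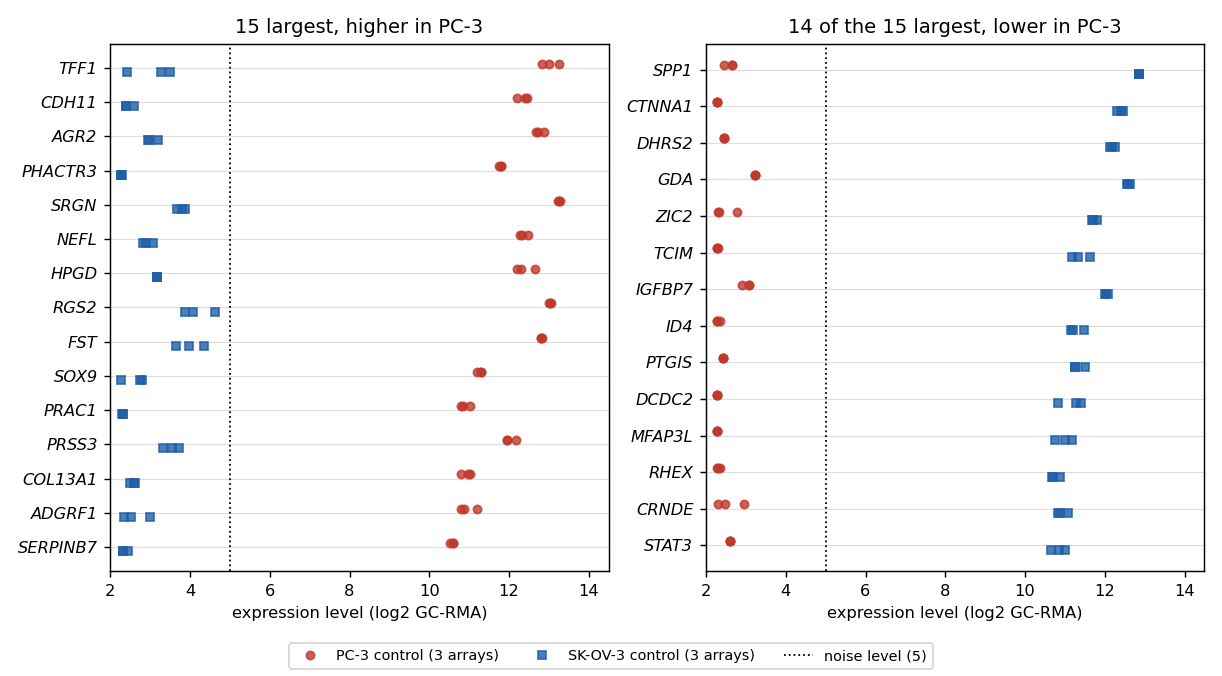
Log2 levels in the 3 control PC-3 and the 3 control SK-OV-3 arrays for the 15 genes with the largest positive (left) and 14 with the largest negative differences (right), one row per gene, with PC-3 arrays as red circles, SK-OV-3 arrays as blue squares and the noise level of 5 as a dotted line. The arrays of a line sit together, and the smallest difference of the means among the genes drawn is 8.21 log2 units.

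Promoters of the genes found in one line alone were set beside those of genes high in both. Promoter sequences of RefSeq (GRCh38.p14), from 250 bases before to 50 after the start of the gene, were matched by symbol for 102 of the 140 genes of PC-3 cells and for 73 of 108 genes of SK-OV-3 cells, 1 of the 109 being left out here. The motif searched was TATAAA, a form of the TATA box, on either strand, and it overlaps no other motif searched. It was in 14 promoters of the PC-3 genes (13.73%) and 9 of the SK-OV-3 genes (12.33%), against 174 of 3048 (5.709%) promoters of genes at 8 or above in all 6 arrays and 3264 of 27305 (11.95%) of all promoters. On the gene's own strand, with its first base 25 to 35 bases before the start, it was in 6 (5.882%), 4 (5.479%), 48 (1.575%) and 657 (2.406%) of these sets in the same order. The median number of CG dinucleotides per promoter was 19 in the PC-3 genes, 24 in the SK-OV-3 genes, 27 in genes high in both lines and 14 over all promoters. A match describes letters in this window and is no evidence of a site, and these differences were not tested.

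The promoters of 2 genes found in PC-3 cells alone and of 2 found in SK-OV-3 cells alone are printed to show this position, with TATAAA in capitals. The choice was made with their values known, from the genes whose motif begins 29 bases before the start. KITLG encodes the ligand of the KIT receptor (chr12:88580422-88580721, minus strand, 34 CG), and IGFBP4 an IGF-binding protein (chr17:40443200-40443499, plus strand, 30 CG). DHRS2 (chr14:23629865-23630164, plus strand, 0 CG) and ID4 (chr6:19837120-19837419, plus strand, 39 CG) are the SK-OV-3 genes above.
KITLG: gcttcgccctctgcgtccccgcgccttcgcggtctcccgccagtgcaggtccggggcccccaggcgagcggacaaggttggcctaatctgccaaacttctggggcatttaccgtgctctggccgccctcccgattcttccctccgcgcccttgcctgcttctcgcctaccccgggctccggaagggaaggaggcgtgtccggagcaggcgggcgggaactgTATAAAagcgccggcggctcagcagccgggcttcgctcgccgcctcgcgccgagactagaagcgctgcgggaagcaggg
IGFBP4: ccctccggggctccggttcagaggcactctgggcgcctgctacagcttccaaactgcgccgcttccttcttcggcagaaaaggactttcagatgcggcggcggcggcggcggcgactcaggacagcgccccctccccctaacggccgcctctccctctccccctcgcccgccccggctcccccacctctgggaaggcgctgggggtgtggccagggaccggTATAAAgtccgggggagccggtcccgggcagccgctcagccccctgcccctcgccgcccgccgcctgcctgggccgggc
DHRS2: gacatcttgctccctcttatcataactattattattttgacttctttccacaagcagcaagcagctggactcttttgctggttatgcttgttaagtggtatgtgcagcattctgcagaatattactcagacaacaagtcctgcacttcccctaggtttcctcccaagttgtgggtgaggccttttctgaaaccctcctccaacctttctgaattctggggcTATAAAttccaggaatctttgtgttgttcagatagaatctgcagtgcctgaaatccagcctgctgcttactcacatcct
ID4: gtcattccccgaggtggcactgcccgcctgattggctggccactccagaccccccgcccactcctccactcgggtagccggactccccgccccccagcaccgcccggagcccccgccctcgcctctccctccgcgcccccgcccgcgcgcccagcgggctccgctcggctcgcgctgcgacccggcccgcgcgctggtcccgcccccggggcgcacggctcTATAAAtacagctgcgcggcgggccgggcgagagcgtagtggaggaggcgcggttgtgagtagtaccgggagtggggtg
KITLG was at 8.63, 8.79 and 8.68 in PC-3 arrays, against 2.76, 2.66 and 3.05 in SK-OV-3 arrays. IGFBP4 was at 10.34, 10.10 and 10.36 in PC-3 arrays, against 4.33, 4.72 and 4.72 in SK-OV-3 arrays. Neither gene's arrays overlapped, and both were at noise in SK-OV-3 cells. The DHRS2 promoter held no CG, while the other 3 held 30 to 39.

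Both lines expressed epithelial adhesion genes, 24 of the list being above noise in every PC-3 array and 19 in every SK-OV-3 array. Both also expressed mesenchymal genes, described below, 16 and 18 in the same order. EPCAM, the epithelial cell adhesion molecule, was at 11.60, 11.72 and 11.59 in PC-3 arrays, against 11.56, 11.57 and 11.65 in SK-OV-3 arrays. CDH1, the gene of E-cadherin, was at 9.50, 10.00 and 9.77 in PC-3 arrays, against 9.77, 10.03 and 10.01 in SK-OV-3 arrays. Neither was called. Of 25 desmosome and epithelial adhesion genes tested, 10 were higher and 5 were lower in PC-3 cells. The desmosomal genes PKP1, at 8.21, 8.23 and 8.26 in PC-3 arrays and 2.31 in all SK-OV-3 arrays, and DSC3, at 8.01, 8.44 and 8.08 against 2.59, 2.68 and 2.61, were found in PC-3 cells only. CTNNA1, the catenin that ties cadherins to actin, was the extreme of the list. It stood at the lowest value, 2.28, in all PC-3 arrays, against 12.29, 12.45 and 12.41 in SK-OV-3 arrays (difference -10.11 ± 0.07, adjusted p = 7.17e-10, at least 167-fold lower), and all 4 of its tested probe sets were lower in PC-3 cells. CTNNB1, the beta-catenin gene, was not called (difference -0.48, adjusted p = 0.00589). MUC1, a surface mucin, was 8.21-fold lower in PC-3 cells and the secreted mucin gene MUC5B was at noise in SK-OV-3 cells.

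Keratins and claudins also differed member by member. The simple-epithelium keratins KRT8, KRT18 and KRT7 were not called, while KRT19 was 3.19-fold higher in PC-3 cells. KRT15 was at 8.0, 8.24 and 8.03 in PC-3 arrays, against 2.98, 2.50 and 2.70 in SK-OV-3 arrays. The basal keratins KRT5 and KRT14 were at 2.28 in all PC-3 arrays, against 5.52 to 6.17 in SK-OV-3 arrays. Of 14 claudins and tight junction genes tested, 3 were higher and 7 were lower in PC-3 cells. CLDN4 was 22.7-fold higher, and CLDN11 was at 8.41, 8.17 and 8.76 in PC-3 arrays, against 2.28, 2.46 and 2.67 in SK-OV-3 arrays. CLDN1 was at 7.75, 8.11 and 8.08 in PC-3 arrays, against 11.52, 11.36 and 11.47 in SK-OV-3 arrays. The arrays of these 3 claudins did not overlap between the lines. CLDN1 was above noise in both lines, CLDN3 was bright in both and was not called, and of the 14 genes 12 were above noise in all arrays of PC-3 cells and 12 in all of SK-OV-3 cells.

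Of 19 mesenchymal genes tested, 6 were higher and 7 were lower in PC-3 cells. VIM, the vimentin gene, was above 13 in every array and was not called. CDH2, the N-cadherin gene, was at 9.15, 8.90 and 9.25 in PC-3 arrays, against 7.37, 7.40 and 7.14 in SK-OV-3 arrays. LOX, the enzyme that cross-links collagen, was at 3.45, 3.78 and 3.34 in PC-3 arrays, against 10.77, 10.78 and 10.77 in SK-OV-3 arrays, at least 54.8-fold lower. S100A4, a calcium-binding protein of motile cells, was 22.3-fold lower, and the actin-binding genes TAGLN and TPM2 were also lower, TPM2 by 19.2-fold. SPARC, a matrix protein, varied between replicas, at 8.59, 9.61 and 8.86 in PC-3 arrays, against 7.63, 7.83 and 6.48 in SK-OV-3 arrays, which still did not overlap.

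Collagens differed chain by chain, within types IV and V as well. Of 16 collagen genes tested, 9 were higher and 6 were lower in PC-3 cells, and the median size of a difference was 3.87 log2 units, against 0.85 over all genes. Above noise in every array were 15 in PC-3 cells and only 9 in SK-OV-3 cells. For members at noise in 1 line, the filter fixed the direction and the size was measured against noise. The 3 chains of collagen VI, COL6A1, COL6A2 and COL6A3, were all higher in PC-3 cells. COL6A1 was at 12.04, 12.24 and 12.07 in PC-3 arrays, against 6.94, 6.75 and 7.0 in SK-OV-3 arrays, 37.3-fold higher. COL6A3 was at 9.29, 9.64 and 9.59 in PC-3 arrays, against 2.62, 2.62 and 2.29 in SK-OV-3 arrays. Collagen IV, the network former of basement membranes, divided by chain, since COL4A1 and COL4A2 were lower in PC-3 cells and COL4A5 and COL4A6 higher. COL4A3 and COL4A4, which are not in the list, were lower as well, COL4A3 at 2.28 in all PC-3 arrays, against 8.59, 8.23 and 8.85 in SK-OV-3 arrays, and COL4A4 at 2.57, 2.28 and 2.28, against 5.47, 5.47 and 5.82. COL4A2 was at 8.79, 8.97 and 8.93 in PC-3 arrays, against 11.34, 11.62 and 11.62 in SK-OV-3 arrays. COL4A5 was at 9.78, 10.09 and 9.62 in PC-3 arrays, against 3.38, 3.38 and 2.74 in SK-OV-3 arrays. COL4A1 and COL4A2 share a promoter region head to head, as do COL4A3 and COL4A4, and COL4A5 and COL4A6. In collagen V, COL5A2 was at 10.44, 10.43 and 10.39 in PC-3 arrays and at noise in SK-OV-3 arrays, while COL5A1 was lower in PC-3 cells. COL12A1 was 16.5-fold lower. The basement membrane linkers NID1 and NID2 were also opposed, with differences of 5.75 and -4.76, and VCAN, the proteoglycan versican, was at 4.17, 4.38 and 4.38 in PC-3 arrays, against 11.31, 11.16 and 11.39 in SK-OV-3 arrays.

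Genes of proteolysis leaned to PC-3 cells, 11 of 21 tested being higher and 7 lower. PLAT, the tissue plasminogen activator, was at 12.52, 12.42 and 12.47 in PC-3 arrays, against 4.58, 4.20 and 4.63 in SK-OV-3 arrays, at least 177-fold higher. PLAU, the urokinase gene, and its receptor PLAUR were higher as well, by 1.86 and 2.62 (log2). SERPINB5, the serpin maspin, was at 10.33, 10.78 and 10.66 in PC-3 arrays, against 2.80, 2.48 and 2.50 in SK-OV-3 arrays. The matrix metalloproteinases did not share a direction, since MMP13, MMP14 and MMP16 were higher in PC-3 cells, MMP2, MMP7 and MMP10 were lower, and MMP1 not called. Among integrins, ITGA1 and ITGA2, the alpha chains of collagen receptors, were 5.05 and 4.79 higher (log2) in PC-3 cells, and ITGAV and ITGB3, which form a receptor for vitronectin and osteopontin, were lower, with differences of -2.17 and -3.56.

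The EGF receptor family was used unevenly. EGFR itself was at 9.42, 9.25 and 9.62 in PC-3 arrays, against 9.58, 9.27 and 9.57 in SK-OV-3 arrays, which overlapped and were not called. ERBB2 was at 7.04, 7.11 and 7.05 in PC-3 arrays, against 12.83, 13.01 and 12.50 in SK-OV-3 arrays (difference -5.72 ± 0.13, adjusted p = 2.37e-08), 52.6-fold lower in PC-3 cells, whose mean was close to that of WM793B cells, 6.8. ERBB3, a partner of ERBB2 with an inactive kinase, went the other way, at 7.63, 7.80 and 7.71 in PC-3 arrays, against 2.78, 3.52 and 2.78 in SK-OV-3 arrays. ERBB4 was at noise in PC-3 cells and at 6.80, 6.92 and 6.67 in SK-OV-3 arrays. Of the ligands, TGFA, HBEGF and NRG2 were higher and EREG lower in PC-3 cells. Of the partners of EGFR, ERBB2 was bright in SK-OV-3 cells and ERBB3 above noise in PC-3 cells only.

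Most tested neighbors of ERBB2 on chromosome band 17q12 were lower in PC-3 cells as well. Of 23 genes listed, ERBB2 itself included, 22 had a probe set and 14 were tested. Of these, 12 were lower, ERBB2 among them, and none higher (median difference -2.05). The background was 20.9% lower over all genes. PPP1R1B, at 5.63, 5.85 and 5.33 in PC-3 arrays, against 10.91, 11.15 and 10.79 in SK-OV-3 arrays, and PGAP3, at 3.83, 3.98 and 3.68 against 9.10, 9.04 and 9.23, followed ERBB2 in size. The adapter gene GRB7, often amplified with ERBB2, was 10.7-fold lower. STARD3 and MIEN1 had differences of -3.86 and -2.34 (log2), and the genes farther off, MED1 and CDK12, of -1.57 and -1.20. ORMDL3 and CWC25 were not called.

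The CDKN2A locus on band 9p21 was opposite. Of 11 genes, 9 were tested, 6 were higher in PC-3 cells and none lower (median difference 2.18). CDKN2B, an inhibitor of CDK4 and CDK6, was at 8.65, 8.53 and 8.52 in PC-3 arrays, against 2.33, 2.32 and 2.32 in SK-OV-3 arrays. CDKN2A, which encodes a second such inhibitor, was at 10.32, 10.10 and 10.38 in PC-3 arrays, against 5.30, 6.50 and 3.80 in SK-OV-3 arrays, where it varied more than any tested neighbor. ELAVL2, a neuronal RNA-binding protein gene, was at 2.28 in all SK-OV-3 arrays. MTAP, the methylthioadenosine phosphorylase that is often lost with CDKN2A, was above noise in both lines, 4.53-fold higher in PC-3 cells. KLHL9, TUSC1 and RRAGA were not called.

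STAT3, a transcription factor that relays cytokine signals from JAK kinases, was at noise in PC-3 cells. It was at 2.59 in all 3 PC-3 arrays, against 10.64, 10.85 and 10.99 in SK-OV-3 arrays (difference -8.24 ± 0.10, adjusted p = 2.10e-09, at least 56.8-fold lower), and its 3 tested probe sets were all lower. Of 21 genes listed on band 17q21, STAT3 itself included, 14 were tested. Of these, 8 were lower, STAT3 among them, and 1 higher in PC-3 cells. CAVIN1, which shapes caveolae, was at 3.09 in all PC-3 arrays, against 8.14, 8.28 and 8.30 in SK-OV-3 arrays. STAT5B, ATP6V0A1 and NAGLU were at noise in PC-3 cells too, while HSD17B1, COASY and MLX, which lie beyond NAGLU, were above noise in both lines. JAK1 was lower in PC-3 cells, with a difference of -1.73 (log2), and JAK2 and TYK2 were 1.49 and 1.46 higher. Of the feedback inhibitors of the pathway, SOCS3 was not called, SOCS2 was higher, and CISH was at 3.14, 3.19 and 3.27 in PC-3 arrays, against 7.52, 7.44 and 7.23 in SK-OV-3 arrays.

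Around CTNNA1 on band 5q31, 16 of 21 genes were tested, CTNNA1 itself included. Of these, 8 were lower, CTNNA1 among them, and 4 higher in PC-3 cells (median difference -0.98). EGR1, an immediate early gene, was at 6.15, 8.09 and 7.16 in PC-3 arrays, against 13.76, 13.76 and 14.15 in SK-OV-3 arrays, 108-fold lower with a wide spread between PC-3 replicas. HSPA9 and ETF1, a mitochondrial chaperone and a translation release factor, were 4.27-fold and 3.95-fold lower. Among the tested genes of this stretch, CTNNA1 alone stood at the lowest value in PC-3 cells. KIF20A and CDC25C, which act in mitosis, were higher in PC-3 cells.

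**Figure D4:**
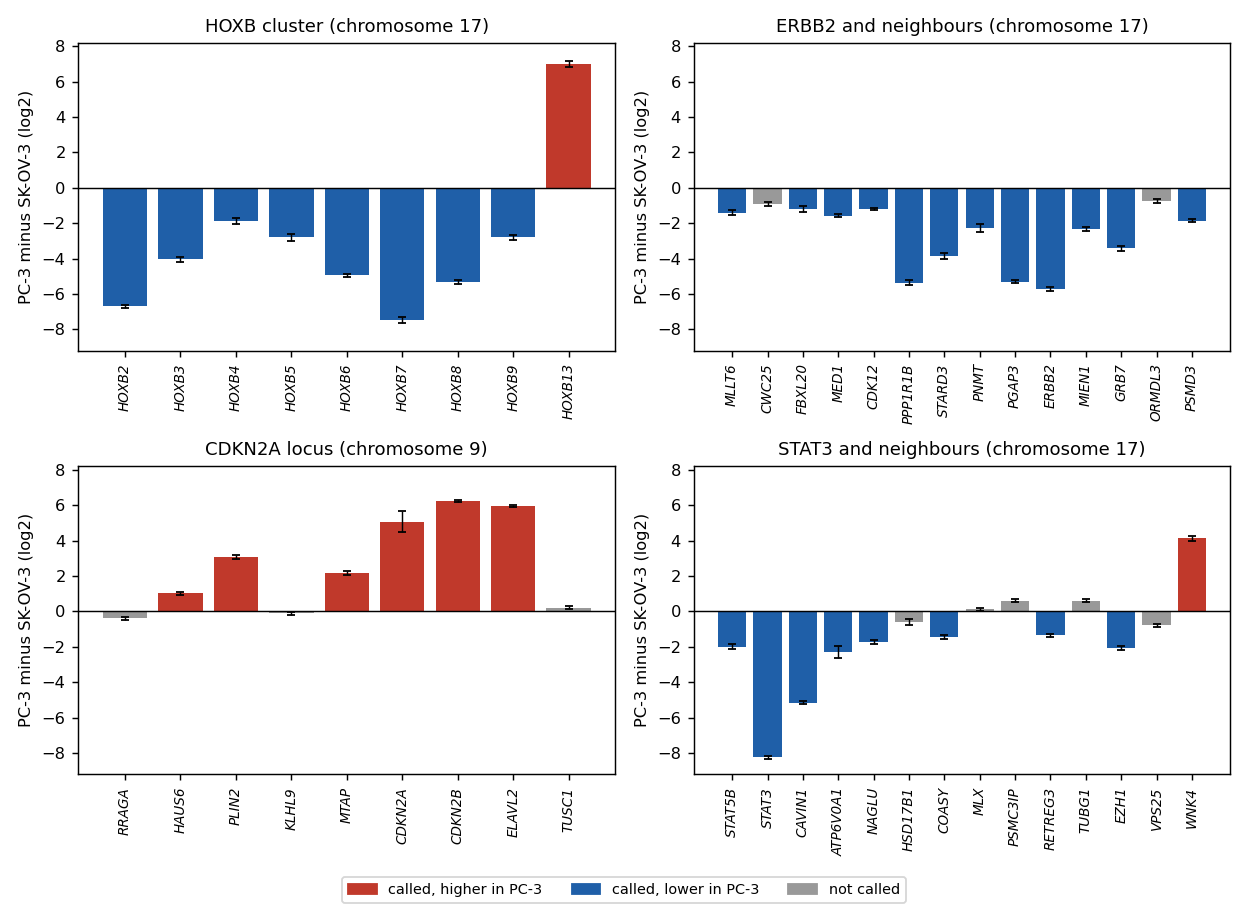
Log2 differences, PC-3 minus SK-OV-3, of the tested genes of the HOXB cluster and around ERBB2, CDKN2A and STAT3 in their order along the chromosome, with standard errors as whiskers and bars red where called higher in PC-3 cells, blue where called lower and grey where not called. HOXB13 (6.99) stands opposite to the other HOXB genes, ERBB2 (-5.72) and STAT3 (-8.24) have the lowest bars of their panels, and CDKN2B (6.25) has the highest around CDKN2A.

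Stretches of adjacent genes at noise in one line were looked for along each chromosome, a search chosen after the values were seen. A run was at least 3 neighboring genes, all at or below 5 in all arrays of one line and all above 5 in the other, where genes at noise in both lines were passed over. There were 7 runs at noise in PC-3 cells, with 24 genes, and 11 runs at noise in SK-OV-3 cells, with 34 genes. Over the genome, 644 genes were at noise in PC-3 cells and above it in SK-OV-3 cells, and 744 the other way. The longest run, 5 genes, was STAT5B to NAGLU in PC-3 cells. Next was a run of 4 genes on chromosome 17 at noise in SK-OV-3 cells, CYB5D2, ANKFY1, UBE2G1 and MYBBP1A, in which the ubiquitin-conjugating enzyme UBE2G1 was at 10.19, 10.28 and 10.19 in PC-3 arrays, against 2.29, 2.28 and 2.40 in SK-OV-3 arrays. MYBBP1A only just met the limits, at 5.22, 5.18 and 5.61 in PC-3 arrays, against 4.73, 4.79 and 4.39 in SK-OV-3 arrays, and was not called, so that 3 of the 4 genes of this run differed by at least 2-fold. The trefoil genes on chromosome 21 formed a run as well. TFF2 was at 9.01, 9.73 and 9.38 in PC-3 arrays, against 2.61, 2.61 and 2.46 in SK-OV-3 arrays, and TFF3 at 5.10, 5.09 and 6.30, against 2.42, 2.58 and 2.58. All 3 trefoil peptides were therefore above noise in PC-3 cells only, TFF3 barely. Other runs at noise in PC-3 cells were IRX3, CRNDE and MMP2 on chromosome 16 and TNFSF9, CD70 and C3 on chromosome 19, the last including the central complement protein.

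Whole chromosomes leaned as well. On chromosome 7, 261 of 464 genes tested were higher in PC-3 cells (56.25%) and 24 lower (5.172%), with a median difference of 1.18, against 23.1% and 20.9% over all genes. Chromosomes 9 and 4 leaned toward SK-OV-3 cells, with median differences of -0.70 and -0.69 and 152 of 404 and 148 of 391 genes lower in PC-3 cells. In windows of 15 neighboring tested genes, the middle 90% of the medians lay between -1.10 and 1.24. A window on chromosome 10 with the urokinase gene PLAU and the vinculin gene VCL had a median of 2.23, with 14 of its 15 genes higher in PC-3 cells. The window over the HOXB cluster had a median of -2.80.

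Interferon-stimulated genes, which are induced through receptors of interferons and encode antiviral proteins, were mostly higher in PC-3 cells. Of 35 genes, 34 had a probe set and 33 were tested, of which 22 were higher and 3 lower, with a median difference of 1.69. Above noise in every array were 32 in PC-3 cells and 25 in SK-OV-3 cells, so the filter favored the higher side for some members. ISG15, a ubiquitin-like modifier, was at 13.14, 13.17 and 13.14 in PC-3 arrays, against 9.41, 8.62 and 9.21 in SK-OV-3 arrays, 16.8-fold higher. OAS1, a sensor of double-stranded RNA, was at 10.21, 10.19 and 10.19 in PC-3 arrays, against 6.36, 5.40 and 6.02 in SK-OV-3 arrays, 19.3-fold higher. IFI44L was at 8.88, 8.93 and 8.91 in PC-3 arrays, against 3.73, 3.19 and 4.04 in SK-OV-3 arrays. The PC-3 arrays were nearly equal, while replica 2 of SK-OV-3 cells was the lowest in each of these 3 genes. The transcription factors IRF7 and IRF9 were higher by 1.69 and 1.29 (log2). IFI35, BST2 and EPSTI1 were lower in PC-3 cells, and IFITM2, IFITM3 and IRF1 were not called.

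Antigen presentation by MHC class I went the other way, although several of its genes respond to interferon as well. Of 17 genes tested, 10 were lower in PC-3 cells and 1, the chaperone gene CALR, higher, with a median difference of -1.56. HLA-B was at 10.17, 10.47 and 10.14 in PC-3 arrays, against 13.33, 13.21 and 13.34 in SK-OV-3 arrays, 8.20-fold lower. NLRC5, a transactivator of class I genes, was at 2.29 in all PC-3 arrays, against 7.27, 7.19 and 7.01 in SK-OV-3 arrays. The immunoproteasome subunits PSMB8, PSMB9 and PSMB10 were lower, with differences of -1.90, -1.66 and -1.99 (log2). B2M, the shared light chain, and the peptide transporter gene TAP2 were not called. The HLA genes resemble each other, so their probe sets may share signal.

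Targets of NRF2, the factor that answers oxidative and electrophilic stress, were mostly lower in PC-3 cells. Of 23 tested, 14 were lower and 1, AKR1B10, higher (median difference -1.31). AKR1C1, an aldo-keto reductase of steroids and carbonyls, was at 7.59, 7.34 and 7.58 in PC-3 arrays, against 13.58, 13.47 and 13.37 in SK-OV-3 arrays, 62.7-fold lower. AKR1C2 and AKR1C3 had differences of -5.69 and -4.01 (log2), and the probe sets of these close relatives may share signal. NQO1, the quinone reductase, was 4.98-fold lower, and SLC7A11, the cystine transporter, 5.76-fold. NFE2L2, which encodes NRF2, was itself at 10.19, 10.21 and 10.25 in PC-3 arrays, against 12.53, 12.39 and 12.32 in SK-OV-3 arrays, and KEAP1, its inhibitor, was not called. TXNRD1, PRDX1 and ME1 were a little higher in PC-3 cells, by less than 2-fold, and were not called.

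Metallothioneins, small proteins that bind zinc and copper, were higher in PC-3 cells in 7 of 7 tested genes of 10 listed, with a median difference of 2.13. MT2A was at 11.86, 11.79 and 12.06 in PC-3 arrays, against 9.52, 9.59 and 9.74 in SK-OV-3 arrays. MT1X was at 10.02, 10.02 and 10.23 in PC-3 arrays, against 7.85, 7.82 and 8.19 in SK-OV-3 arrays. These genes lie side by side on chromosome 16 and are nearly identical in sequence, so the 7 are not independent readings. That chromosome as a whole leaned toward SK-OV-3 cells, with a median difference of -0.56.

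DNA replication genes were mostly higher in PC-3 cells, 22 of 29 tested with none lower, and a median difference of 1.67. Over all genes, 23.1% were higher and 20.9% lower. All 29 were above noise in every PC-3 array but only 22 in every SK-OV-3 array, so the filter favored this direction for the rest. RRM2, the small subunit of ribonucleotide reductase, was at 11.24, 11.30 and 11.25 in PC-3 arrays, against 7.83, 7.68 and 8.15 in SK-OV-3 arrays, 10.4-fold higher. TYMS, the thymidylate synthase, was at 12.11, 12.08 and 12.05 in PC-3 arrays, against 9.34, 9.43 and 9.86 in SK-OV-3 arrays, 5.80-fold higher. POLE2, GINS2 and MCM7, parts of the polymerase, of the helicase complex and of its core ring, were higher by 2.83, 2.29 and 2.54 (log2). MCM2, MCM5 and CDC6 were not called. Cyclins and their kinases leaned the same way, 10 of 21 higher and 2 lower, with CCNE2 and CDK1 higher by 3.87 and 2.97 (log2). Culture density and growth rate of the 2 lines were not measured in these files.

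Housekeeping groups set a scale for these differences. Of 34 ribosomal protein genes tested, 1 was higher in PC-3 cells (RPL14) and 1 lower (RPL34), with a median difference of -0.09. Of 27 proteasome subunits, PSMA2 was higher and PSMD3, which lies near ERBB2, lower, with a median of -0.29. The study's reference genes for PCR, HADHA, EIF5 and CTBP1, were not called. Among the 10 brightest called genes, COX1, of the mitochondrial genome, was the brightest, at 15.40, 15.37 and 15.42 in PC-3 arrays, against 14.22, 14.05 and 14.90 in SK-OV-3 arrays, just past 2-fold. EIF1, FTL, LGALS3 and RPL34 were lower in PC-3 cells, with differences of -1.06 to -1.41, and PPIA, TUBA1B, RAN, PGK1 and RPL14 higher by 1.09 to 1.35. These 10 were chosen by their mean over both lines, which leaves out genes bright in one line and low in the other.

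**Figure D5:**
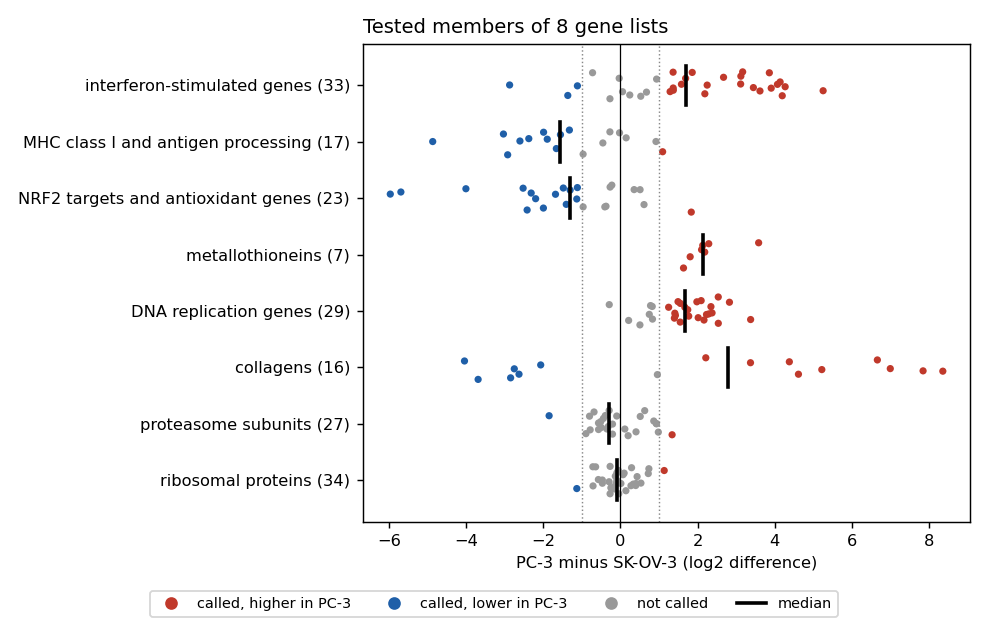
Log2 differences, PC-3 minus SK-OV-3, of the tested members of 8 gene lists, one point per gene, red where called higher in PC-3 cells, blue where called lower and grey where not called, with a bar at each list's median and dotted lines at 2-fold. DNA replication genes (22 of 29) and interferon-stimulated genes (22 of 33) lie mostly on the higher side, NRF2 targets (14 of 23) and MHC class I genes (10 of 17) on the lower side, and ribosomal proteins near the middle.

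Secreted signals differed between the lines by single genes. Of 23 genes of the TGF-beta superfamily tested, 9 were higher and 7 were lower in PC-3 cells. INHBA and INHBB, subunits of activins, were at 11.19, 10.91 and 11.26 and at 11.07, 10.82 and 11.08 in PC-3 arrays, against 3.27 to 3.42 in SK-OV-3 arrays. INHBE, another activin subunit that stands in none of the lists, went the other way, at 2.28 in all PC-3 arrays, against 9.99, 9.83 and 9.64 in SK-OV-3 arrays. Follistatin, above, had the pattern of INHBA and INHBB. NOG, the BMP antagonist noggin, was at 7.30, 7.58 and 7.90 in PC-3 arrays and at 2.28 in all SK-OV-3 arrays. BMP2 and its targets ID1, ID3 and ID4 were lower in PC-3 cells, while ID2 was not called. In the WNT pathway, DKK1, a secreted antagonist, was at 13.93, 13.75 and 13.88 in PC-3 arrays, against 6.22, 5.79 and 6.09 in SK-OV-3 arrays. DKK3, a relative, was the reverse, at 2.48, 2.48 and 2.54 in PC-3 arrays, against 10.10, 10.31 and 10.12 in SK-OV-3 arrays. The receptors FZD4 and FZD7 were opposed as well, by 5.13 and -4.02.

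Cytokines showed the same contrast of near relatives. Of 20 tested, 8 were higher and 6 were lower in PC-3 cells. IL1A was at 2.52, 2.41 and 2.53 in PC-3 arrays, against 9.82, 9.71 and 10.54 in SK-OV-3 arrays, and IL1B at 9.13, 9.42 and 9.34 in PC-3 arrays, against 3.68, 3.33 and 4.10 in SK-OV-3 arrays. Each line had 1 of the 2 ligands of the interleukin 1 receptor at a high level and the other at noise, while WM793B cells had both, with means of 12.4 and 10.8. CXCL6, a neutrophil chemokine, was at 9.40, 9.08 and 8.98 in PC-3 arrays and at 2.28 in all SK-OV-3 arrays, CXCL8 was not called, and CXCL1 and CXCL2 were lower in PC-3 cells. Among complement and acute phase genes, C3 and CFB, which form the convertase of the alternative pathway, were lower in PC-3 cells, with differences of -5.63 and -5.28, and the membrane regulators CD55 and CD59 were 1.91 and 2.32 higher (log2).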

How the data were processed

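Control PC-3 and control SK-OV-3 cells were measured on Affymetrix Human Genome U133 Plus 2.0 arrays. The deposited log2 values, 1 per probe set, were made by the authors with GC-RMA, a method that removes background by the base composition of the probes and puts the arrays on a common scale. They are not depth-based, and each group has 3 arrays. Of 54675 probe sets, 62 controls were left out, 41091 had 1 gene symbol, 1801 several and 11721 none in the platform annotation used here, and some genes are not analysed here. Each gene is represented by the probe set of 1 symbol with the highest mean over the 6 arrays. Probe sets above 5 in at least 3 of the 6 arrays were tested with limma 3.58.1 (lmFit and eBayes, R 4.3.3), PC-3 minus SK-OV-3, Benjamini-Hochberg over all tested, and called at an adjusted p under 0.05 and at least 2-fold. In every list above, a gene at noise in 1 line passed this filter through the other line only, which fixed its direction. The fit was checked on simulated data. An exact permutation test of 3 against 3 cannot go below 0.1. Errors after ± are standard errors of the fit.

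The genes named are the 15 with the largest difference in each direction, 1 of which is not given, up to 6 called members of each of 56 lists and those that define it, the genes known as gained or lost in these lines, and the 10 brightest called. Others were chosen after their values were seen. Comparison, lists and members were chosen with earlier results of these data known. Alternatives were other filters, quantile and median normalization, a trended prior, and the replicate number as a block. Further ones were other limits for noise and high levels, the median over the probe sets of a gene, and leaving out each array. Where nothing else is said, replicas are the biological replicas of the labels, whose source in separate cultures is not given in more detail, so p-values measure the spread between these arrays.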

Additional observations from a re-analysis of the deposited data

How the results depend on the processing

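The count of called genes stayed within 1.5 times of 4403 under every alternative run. It was 4958 with no filter on level (2580 higher and 2378 lower in PC-3 cells), 3879 with the filter at 6, 4806 with the study's filter, 4410 after quantile normalization, 4405 after centring on the median and 4399 to 4438 when 1 array was left out. No gene called in both settings changed direction. Same-numbered arrays of the 2 lines did not deviate together (r = 0.04, 0.03 and 0.04), so the numbers do not pair them, and a fit with a replicate block called 4403 genes. The counts of genes high in one line and at noise in the other rest on their limits and on the probe set that represents a gene. With noise set at 6 or the high level at 7 or 9 there were 225, 254 and 66 in PC-3 cells alone, and with noise at 4 or the high level at 7 or 9 there were 72, 212 and 57 in SK-OV-3 cells alone. Noise at 4 gave 100 in PC-3 cells alone. The median over the probe sets of a gene, in place of its brightest one, gave 99 in PC-3 cells alone and 75 in SK-OV-3 cells alone. Leaving out 1 array gave 140 to 148 and 109 to 115. COX1 fell below 2-fold after centring on the median (0.99), without replicate 3 of PC-3 cells (1.00), without replicate 1 of SK-OV-3 cells (0.92) and without replicate 2 of SK-OV-3 cells (0.84). Counts of list members called higher or lower moved by over 1.5 times in 27 cases and stayed within it in 1429. Of the 27, 13 came with the filter at 6, 5 with no filter, 4 with the study's filter and 5 on leaving out an array. With the filter at 6, which tests fewer genes, lower proteases were 4 in place of 7, higher receptor tyrosine kinases 5 in place of 8, lower prostate basal markers 2 in place of 4 and lower mesothelial markers 0 in place of 3. With no filter, 2 kallikreins were called higher and 1 lower in PC-3 cells. Higher prostate basal markers were 2 in place of 1 without replicate 1 or 2 of PC-3 cells or replicate 2 of SK-OV-3 cells. Without replicate 1 of SK-OV-3 cells, higher MHC class I genes were 2 in place of 1 and higher drug efflux transporters 0 in place of 1. GC-RMA's lowest value limits what can be said of genes at noise, and 9354 genes were at or below noise in all 6 arrays.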

Other observations

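Genes of the hypoxia response differed between the lines without hypoxia. Of 27 tested, 11 were higher and 7 were lower in PC-3 cells. Glycolytic members such as HK2, PFKFB4 and ALDOC were higher by 3.60, 3.64 and 3.21 (log2). VEGFA, the vascular growth factor, was at 9.47, 9.26 and 9.59 in PC-3 arrays, against 12.32, 12.22 and 12.41 in SK-OV-3 arrays, and the carbonic anhydrase gene CA12 at 7.34, 7.40 and 7.41, against 11.51, 11.65 and 11.50. EPAS1, which encodes HIF-2 alpha, was lower in PC-3 cells, with a difference of -2.31. The list thus held members high in either line.

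Of 18 receptor tyrosine kinases outside the EGF family, 8 were higher and 5 were lower in PC-3 cells. MET, the receptor of hepatocyte growth factor, was at 12.47, 12.36 and 12.51 in PC-3 arrays, against 9.98, 10.00 and 10.02 in SK-OV-3 arrays. DDR2, a collagen receptor, was at 3.18, 3.20 and 3.69 in PC-3 arrays, against 7.94, 8.14 and 8.0 in SK-OV-3 arrays. Of 20 axon guidance and cell contact receptors, 5 were higher and 8 lower, and UNC5B, a netrin receptor, was at 2.79, 2.79 and 2.85 in PC-3 arrays, against 10.93, 10.72 and 10.91 in SK-OV-3 arrays. L1CAM, a neural adhesion molecule, was at 4.45, 3.75 and 4.30 in PC-3 arrays, against 9.59, 9.61 and 9.46 in SK-OV-3 arrays. Neither overlapped. PI3 and SLPI, a pair of related secreted elastase inhibitors, were opposed, PI3 at 10.86, 10.78 and 10.97 in PC-3 arrays, against 3.44, 3.90 and 4.18 in SK-OV-3 arrays, and SLPI at 9.91, 10.08 and 10.04, against 13.30, 13.35 and 13.23.

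Of 22 glutathione transferases and aldehyde dehydrogenases, 11 were higher and 4 were lower in PC-3 cells, and of 19 genes of cholesterol and fatty acid synthesis, 8 and 2. Of 11 genes of the NOTCH pathway, 3 were higher and 4 lower, of 18 S100 genes and annexins 6 and 5, of 16 laminins and matrix glycoproteins 7 and 5, of 18 surface targets of antibodies 5 and 6, and of 8 genes of the MYC network 0 and 2. Of 7 drug efflux transporters, 1 was higher and 1 lower. None of 14 kallikreins with a probe set was above noise often enough to be tested, and of 18 cancer-testis antigens 2 were, of which 1 was higher in PC-3 cells.

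Where a gene had 2 or more tested probe sets, all had the same direction in 3882 of 4605 genes (84.3%), and in 1875 of 1941 called genes (96.6%).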
